A study of Mus musculus with 13 samples.

Results

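The purinergic genes followed here are P2ry6, P2ry10, P2ry12, P2ry13, P2ry14, P2rx4, P2rx7, Entpd1, Nt5e and Adora2a, chosen by name from what is known of receptors and enzymes of extracellular nucleotides. A gene was read from the probe sets that the platform annotation gives to its symbol alone, and where there were several the one with the highest mean over the 13 arrays was used. Of the 10 genes, 9 had such a probe set (out of 18 probe sets for these genes) and all 9 passed the filter on low signals, among 18194 genes with a probe set of their own and 9380 genes tested. Adora2a, which encodes a receptor for adenosine, had none and was not analysed here.

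ATP and other nucleotides are released by stressed or dying cells and bind P2 receptors, of which the P2X receptors are ion channels opened by ATP and the P2Y receptors couple to G proteins. Ectonucleotidases on the cell surface remove the phosphates one by one: Entpd1 (CD39) turns ATP and ADP into AMP, and Nt5e (CD73) turns AMP into adenosine. In immune tissue, extracellular ATP is known mostly as a danger signal and adenosine as a brake on lymphocytes.

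The arrays were Affymetrix whole-genome chips hybridized with RNA of spleen cells from wild-type C57BL/6 mice. There were 2 arrays each of plasmacytoid dendritic cells (pDCs), CD8α conventional dendritic cells (CD8α cDCs), CD11b conventional dendritic cells (CD11b cDCs), CD8 T cells and NK cells. B cells had 3 arrays, of which the second and the third are labelled as follicular. Cells of 10 to 15 mice were pooled for each DC array and of 6 to 10 mice for each NK cell array, while 3, 2 and 1 mice gave the B cells, and single mice the CD8 T cells. Where the labels state it, the mice were 6 to 8 weeks old and female (the first CD8α cDC array and both CD8 T cell arrays) or 6 weeks old and male (B cell replicates 2 and 3). The cells were sorted by surface markers, the pDCs as CD11c+ 120G8 high cells and the cDCs as CD11c high cells that carried either CD8α or CD11b, so that each array stands for a gate rather than for a clone or a line. The DC and NK cell duplicates came from separate sorts, whereas the spread of the other populations is only that between these samples. In the fit to all arrays, each p-value rests on a spread shared by all 6 populations. The spread of the B cell arrays thus also enters the p-values of comparisons among DCs.

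Each population carried transcripts that mark its label. Siglech was high in pDCs, Xcr1 in CD8α cDCs, Ncr1 in NK cells, Cd79a in B cells and Cd3e in CD8 T cells. Only CD11b cDCs had all 3 of their measured markers at 50 or more, but none of the 3 was confined to them. Cd4 was higher in pDCs (1526 and 1287) than in CD11b cDCs (504 and 458). Sirpa read 1516 and 1317 on the CD11b cDC arrays, against 731 and 660 for pDCs. Itgam read 158 and 174 on the CD11b cDC arrays, against 135 and 162 for NK cells. The correlation between replicates was 0.934 to 0.987. On both NK cell arrays the 3′ to 5′ ratio of the GAPDH control probes was 11.2 and 23.9, against 3.46 to 6.30 on the other 11. The arrays were scanned on 5 days. Since no scan period held both DCs and lymphocytes, period and population cannot be told apart in any comparison of DCs with lymphocytes. Both CD8 T cell arrays formed a scan period of their own, so the same holds for every pair with CD8 T cells. Sex ran with lineage as well: all 6 DC arrays read Xist at 1539 to 4503 and the Y-linked Eif2s3y at 8.51 or less, whereas all lymphocyte arrays but B cell replicate 2 read Xist at 1.05 or less and Eif2s3y at 346 to 968. Xist and Eif2s3y went against the labelled sex on 3 arrays (B cell replicate 2 and both CD8 T cell arrays), and each comparison with lymphocytes was therefore repeated without them. All 9 genes stayed on the same side of the threshold in that comparison except Nt5e, which then no longer reached the filter and was not tested.

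Signals are the deposited MAS5 intensities, an arbitrary brightness scale on which the trimmed mean of an array is 100. For the tests they were floored at 20 and log2 transformed, so that a fold against a population below 20 is a lower bound. Limma was fitted to all 9380 genes at a Benjamini-Hochberg adjusted threshold of 0.05. By limma's F test all 9 purinergic genes differed somewhere among the 6 populations. This was the case for 82.8% of all genes tested, so it sets these genes little apart. A lower signal in a sorted population can mean fewer cells with the transcript or less of it per cell, and these cannot be told apart here.

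**Figure D1:**
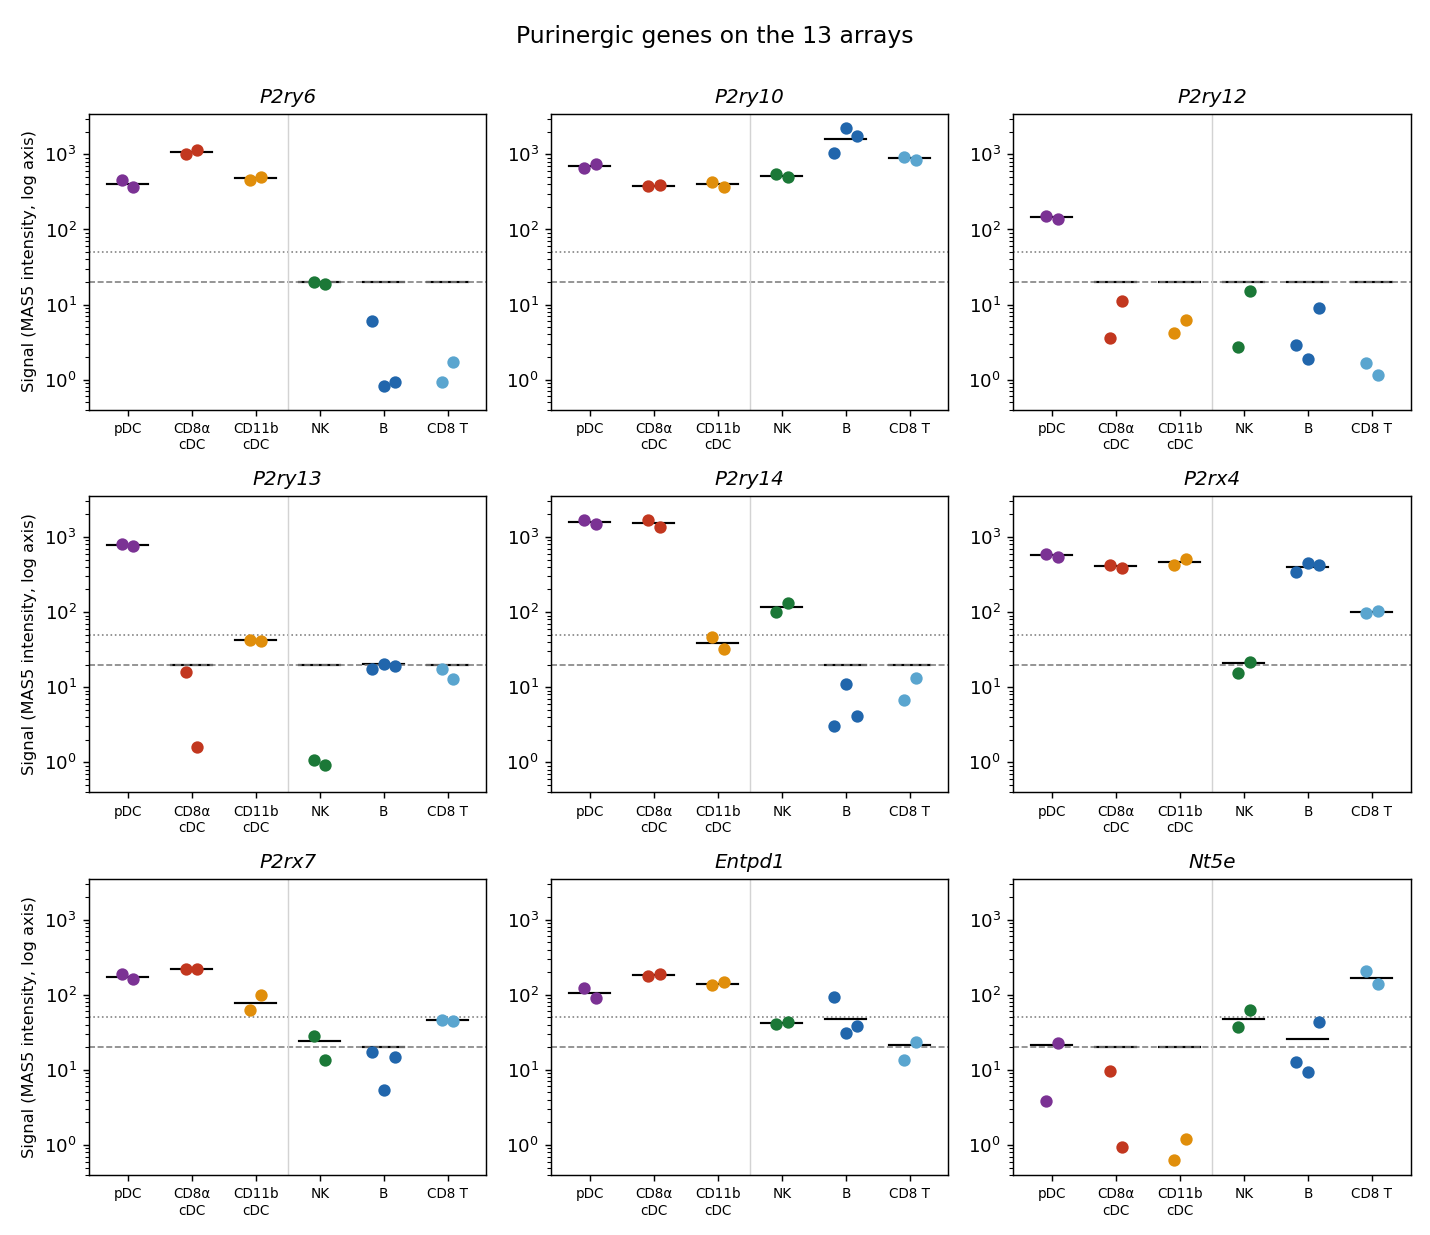
Signal of each gene on each of the 13 arrays (points, log axis) by population, with DCs left and lymphocytes right of the vertical line. The bar is the mean of log2 values floored at 20, the dashed line marks this floor and the dotted line the filter at 50. P2ry12 lies above the floor only in pDCs, P2ry6 above it only in the 3 DC populations, and P2ry10 lies above 50 on all 13 arrays.

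Of the P2Y receptors, P2ry12, P2ry13 and P2ry14 are coded close together on chromosome 3, where RefSeq places them in the order P2ry14, P2ry13 and P2ry12, with Gpr171 before them. P2ry12 and P2ry13 are receptors for ADP, the first being the target of antiplatelet drugs, and P2ry14 is the receptor for UDP-glucose, a sugar nucleotide. The neighbours were not alike: P2ry12 was seen in pDCs alone, P2ry13 almost only in pDCs, and P2ry14 in both pDCs and CD8α cDCs.

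Windows of 300 bases around their annotated starts are shown because the 3 genes share a locus and the high pDC signal. They are RefSeq sequences of build GRCm38.p6, all on the minus strand. Capitals mark a match to CACCTG, the E-box bound by E proteins, or its reverse complement.
P2ry12, chr3:59262936-59263235: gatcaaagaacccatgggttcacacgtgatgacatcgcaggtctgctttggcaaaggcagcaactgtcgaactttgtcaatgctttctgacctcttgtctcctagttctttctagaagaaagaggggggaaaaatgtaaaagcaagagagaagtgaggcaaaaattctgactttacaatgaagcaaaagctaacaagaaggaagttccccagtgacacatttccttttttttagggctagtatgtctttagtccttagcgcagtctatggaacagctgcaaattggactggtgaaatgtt
P2ry13, chr3:59210833-59211132: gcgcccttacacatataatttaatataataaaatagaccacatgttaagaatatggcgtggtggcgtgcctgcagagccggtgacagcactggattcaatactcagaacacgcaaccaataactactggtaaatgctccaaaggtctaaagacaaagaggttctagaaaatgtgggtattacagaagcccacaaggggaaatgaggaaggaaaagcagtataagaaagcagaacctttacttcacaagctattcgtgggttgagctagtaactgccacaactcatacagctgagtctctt
P2ry14, start furthest upstream, chr3:59153443-59153742: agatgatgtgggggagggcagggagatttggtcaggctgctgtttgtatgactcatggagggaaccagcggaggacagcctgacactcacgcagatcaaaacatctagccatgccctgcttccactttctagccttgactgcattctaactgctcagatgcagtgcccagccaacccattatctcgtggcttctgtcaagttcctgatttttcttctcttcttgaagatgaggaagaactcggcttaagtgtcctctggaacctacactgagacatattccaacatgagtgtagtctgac
P2ry14, an inner start, chr3:59131279-59131578: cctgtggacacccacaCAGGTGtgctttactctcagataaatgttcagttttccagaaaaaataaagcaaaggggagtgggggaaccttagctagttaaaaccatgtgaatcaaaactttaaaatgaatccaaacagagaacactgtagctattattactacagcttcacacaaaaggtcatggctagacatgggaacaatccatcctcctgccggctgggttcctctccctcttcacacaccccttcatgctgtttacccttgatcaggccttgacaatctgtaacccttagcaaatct
The motifs GAGGAAGT (an ETS site), TGTGGTT (a RUNX site) and CACCTG were searched on both strands. Only the inner P2ry14 start held one of them, a CACCTG match, which 20.2% of all 32851 mouse windows also hold. The windows of P2ry12 and P2ry13 held none of these letters. RefSeq windows were found for 8 of the 10 genes (14 windows, with none for P2ry6 and Adora2a). In them CACCTG was found in 2 windows (Entpd1 and P2ry14) and GAGGAAGT in 2 (P2rx7 and P2ry10, with 3.2% of all windows). TGTGGTT was found in 1 window (P2ry10, with 5.27% of all windows).

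P2ry12 (probe set 1431724_a_at) had signals of 153 and 136 in pDCs. On the other 11 arrays it read between 1.16 and 15.1, all below the floor. Both pDC arrays thus stood clear of every other array, and the other populations have no order among themselves. The signal in pDCs was at least 7.22-fold higher than in cDCs (log2 difference 2.85, SE 0.12, limma adjusted p = 2.08e-08). The floor takes the spread of the other 11 arrays out of this SE. Without a floor the difference was 4.66 (SE 0.79, limma adjusted p = 0.00198). Because only 1 of the 3 DC populations carried P2ry12, the mean of all DCs was above that of lymphocytes by only 0.95 (SE 0.08, limma adjusted p = 1.71e-06). Since platelets carry this receptor, the 8 measured platelet and megakaryocyte markers were read in the same arrays. Of these, 6 were below 20 on both pDC arrays, among them Pf4 (19.4 and 14.7) and Gp9 (1.82 and 1.58). Only the integrin Itgb3 reached 50 (545 and 675), and the summed markers were 635 and 748 in pDCs, against 105 to 503 elsewhere. Most of the pDC sums came from Itgb3. The part of platelets in the P2ry12 signal was not tested.

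P2ry13 (1428700_at) had signals of 808 and 760 in pDCs. CD11b cDCs read 42.2 and 41.7, and CD8α cDCs 15.7 and 1.62. Lymphocytes read between 0.925 and 20.2, with the B cells at 17.4, 20.2 and 19.4. The pDC arrays were apart from all the others, and the faint CD11b cDC signal, below the filter of 50, lay above every remaining array. P2ry13 was at least 27.1-fold higher in pDCs than in cDCs (log2 difference 4.76, SE 0.12, limma adjusted p = 7.13e-10). Without a floor the difference was 5.75 (SE 0.68, limma adjusted p = 0.000281). Between the cDC subsets P2ry13 was lower in CD8α cDCs by 1.07 on the log2 scale or more (difference −1.07, SE 0.14, limma adjusted p = 0.000219). Without a floor, this difference was −3.06 (SE 0.79, limma adjusted p = 0.0326). With the floor at 50 both cDC subsets lay at the floor, so that the difference was 0 and the call was lost.

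P2ry14 (1424733_at) was among the brightest of these genes. It read 1699 and 1476 in pDCs and 1704 and 1351 in CD8α cDCs. CD11b cDCs read 47.2 and 32.6. NK cells read 100 and 133, B cells 3.06, 10.9 and 4.09, and CD8 T cells 6.75 and 13.3. The pDC and CD8α cDC arrays overlapped fully, and CD11b cDCs lay below NK cells. The difference of pDCs from CD8α cDCs was 0.06 on the log2 scale (95% interval −0.42 to 0.54, adjusted p = 0.866 over all genes and pairs, limma). CD8α cDCs exceeded CD11b cDCs 38.7-fold (log2 difference 5.27, SE 0.22, limma adjusted p = 3.74e-08). NK cells were above CD11b cDCs (CD11b cDCs minus NK cells −1.56, SE 0.22, limma adjusted p = 0.000192 over all pairs). In order, pDCs and CD8α cDCs were not distinguished, followed by NK cells, CD11b cDCs, and then B and CD8 T cells at the floor. Each of these steps passed the test.

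Gpr171, an orphan receptor of the same family that is coded next to P2ry14, followed a part of that pattern. It read 1760 and 1158 in pDCs, 1000 and 1113 in CD8α cDCs and only 55.4 and 41.5 in CD11b cDCs, but between 489 and 1252 in lymphocytes. Both neighbours were thus low in CD11b cDCs, where Gpr171 was lower than in CD8α cDCs by a log2 difference of 4.46 (CD8α cDCs minus CD11b cDCs, SE 0.25, limma adjusted p = 4.73e-07). Only P2ry14 was also low in B and CD8 T cells. Med12l, whose RefSeq coordinates begin before those of Gpr171, read between 5.24 and 55.4, with its highest signals in pDCs (47.1 and 55.4), and did not pass the filter. Whether it overlaps these receptor genes was not examined.

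**Figure D2:**
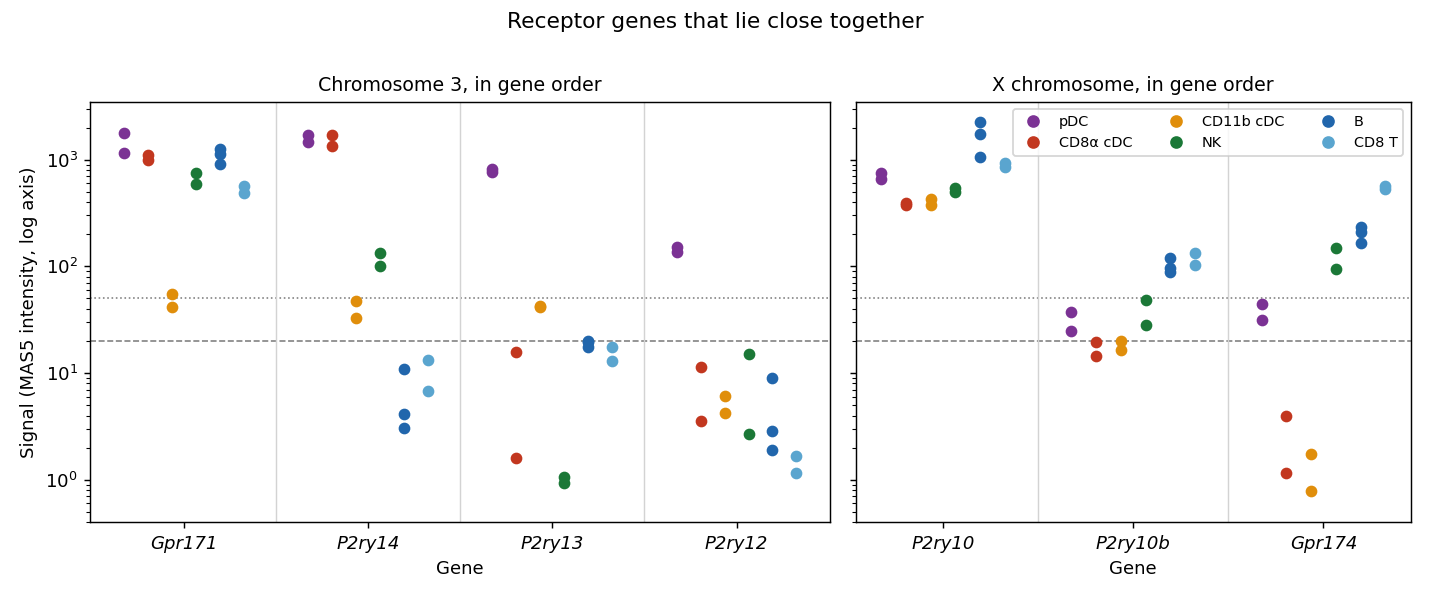
Signal on each array (points, log axis) of receptor genes that lie close together on chromosome 3 (left) and on the X chromosome (right), by population. The dashed line is the floor of 20 and the dotted line the filter of 50. Along chromosome 3, Gpr171 is low only in CD11b cDCs, P2ry14 is high in pDCs and CD8α cDCs, and P2ry13 and P2ry12 are high in pDCs. On the X chromosome all 3 genes are lowest in cDCs.

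P2ry6 (1425214_at), the receptor for UDP, was the member most plainly shared by the DC family. It read 450 and 368 in pDCs, 1006 and 1128 in CD8α cDCs and 458 and 507 in CD11b cDCs. NK cells read 19.9 and 18.5, B cells 6.01, 0.832 and 0.921, and CD8 T cells 0.933 and 1.73. All 6 DC arrays were far above all 7 lymphocyte arrays, which were all below the floor. The signal in DCs was at least 29.7-fold higher than in lymphocytes (log2 difference 4.89, SE 0.09, limma adjusted p = 2.12e-11). Within the DC family CD8α cDCs were 2.21-fold above CD11b cDCs (log2 difference 1.14, SE 0.16, limma adjusted p = 0.000357). The pDCs were lower than the cDCs by 0.82 on the log2 scale (difference −0.82, SE 0.14, limma adjusted p = 0.000689), although pDCs and CD11b cDCs were not distinguished (adjusted p = 0.243 over all pairs). Without the floor, where the lymphocyte readings near 1 enter the shared spread, neither difference within the DC family passed (adjusted p = 0.396 and 0.398). P2ry6 is known from macrophages, and 8 of the 9 measured markers of macrophages and monocytes reached 50 in CD11b cDCs. Their sums were 1163 and 1405 in pDCs, 595 and 681 in CD8α cDCs and 4988 and 5468 in CD11b cDCs, where Csf1r alone read 3187 and 3473. The complement genes C1qa, C1qb and C1qc were below 20 on both CD8α cDC arrays, which had the highest P2ry6, and Vcam1 read 170.1 and 171 there. The part of these markers in the P2ry6 signal was not tested.

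P2ry10 (1452815_at) is named after the nucleotide receptors but is known, from human cells, as a receptor for lysophosphatidylserine. It went the other way. The signals were 659 and 751 in pDCs, 378 and 390 in CD8α cDCs and 425 and 373 in CD11b cDCs. NK cells read 542 and 503, B cells 1048, 2266 and 1731, and CD8 T cells 930 and 845. Every array was far above the filter, B cells were highest, and the pDCs overlapped neither with the cDCs below them nor with the B and CD8 T cells above. NK cells lay between cDCs and pDCs. DCs were lower than lymphocytes by 0.93 on the log2 scale (difference −0.93, SE 0.16, limma adjusted p = 0.000512). In pDCs it was 1.8-fold above cDCs (log2 difference 0.85, SE 0.25, limma adjusted p = 0.0216). That call was lost without pDC replicate 1 (limma adjusted p = 0.0712), pDC replicate 2 (adjusted p = 0.152), CD8α cDC replicate 1 (adjusted p = 0.0542) or CD11b cDC replicate 2 (adjusted p = 0.0636), and also without the filter on signal (adjusted p = 0.0743). In the order of the populations, B cells were above CD8 T cells (log2 difference 0.85, limma adjusted p = 0.024 over all pairs), and no other neighbours were distinguished. The cDC subsets differed by −0.05 (CD8α minus CD11b cDCs, 95% interval −0.69 to 0.59, limma adjusted p = 0.972). The gene lies on the X chromosome, and the brightest array, B cell replicate 2, was the only lymphocyte array with Xist and without Eif2s3y. B cell replicate 3, labelled as follicular like replicate 2, was the next brightest array and read Xist at 0.897 and Eif2s3y at 605. Replicate 1, which has no such label, was the dimmest of the B cell arrays. The parts of this label and of sex in the spread of B cells were not tested. The part of sex in the difference of DCs from lymphocytes, for this gene and its X-linked neighbours, was not tested either.

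Beside P2ry10 on the X chromosome lie P2ry10b, a near copy, and Gpr174, another receptor for lysophosphatidylserine. P2ry10b (1435584_at) read 25.0 and 37.3 in pDCs, 14.4 to 20.04 in cDCs, 28.5 and 48.3 in NK cells, 89.3 to 119 in B cells and 102 and 133 in CD8 T cells. Gpr174 read 31.3 and 44.7 in pDCs, 0.792 to 3.96 in cDCs, 94.5 and 149 in NK cells, 164 to 233 in B cells and 532 and 563 in CD8 T cells. All 3 neighbours were lowest in cDCs and higher in B and CD8 T cells than in any DC population, and the DC minus lymphocyte differences of its neighbours were −1.72 (SE 0.16) for P2ry10b and −3.25 (SE 0.14) for Gpr174, with limma adjusted p = 3.59e-06 and 1.10e-08. Whether probes of P2ry10 and P2ry10b share transcripts was not tested.

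P2rx4 and P2rx7, ATP-gated cation channels coded next to each other on chromosome 5, differed in which lymphocytes carried them. P2rx4 (1425525_a_at), a channel of the plasma membrane and lysosomes, read 601 and 543 in pDCs, 425 and 389 in CD8α cDCs and 428 and 506 in CD11b cDCs. NK cells read 15.6 and 21.9, B cells 343, 447 and 418, and CD8 T cells 97.2 and 103. B cells overlapped with the cDCs, CD8 T cells were intermediate, and NK cells were at the floor. DCs exceeded lymphocytes by 2.34 (log2, SE 0.10, limma adjusted p = 8.61e-09), and by 1.25 without both NK cell arrays (adjusted p = 8.79e-06). B cells were not distinguished from CD8α cDCs (CD8α cDCs minus B cells 0.02, 95% interval −0.34 to 0.38, limma adjusted p = 0.952 over all pairs). Neither comparison within the DC family passed: pDCs minus cDCs gave 0.39 (95% interval 0.05 to 0.73, limma adjusted p = 0.0686) and CD8α minus CD11b cDCs −0.20 (−0.59 to 0.20, adjusted p = 0.524). The first of these passed without B cell replicate 1 (limma adjusted p = 0.0332), with the floor at 50 (adjusted p = 0.0357) and with a term for the prefix of the source names (adjusted p = 0.0334). Of the pairs of DC populations only pDCs against CD8α cDCs passed, narrowly (log2 difference 0.49, SE 0.18, limma adjusted p = 0.0468 over all pairs).

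The gap between NK cells and B cells in P2rx4 was −4.26 on the log2 scale (NK cells minus B cells, SE 0.16, limma adjusted p = 7.66e-09 over all pairs), and it was −4.23 among the 4 arrays of these populations scanned on the same day. The NK cell arrays are those with the high GAPDH ratio named above, and its part in this gap was not tested. The other P2rx4 probe set that passed the filter (1452527_a_at) read 203 and 131 in pDCs, 113 to 178 in cDCs, 2.06 and 3.26 in NK cells, 116 to 166 in B cells and 27.1 and 33.4 in CD8 T cells. It gave the same order of lymphocytes, with NK cells lowest, and a DC minus lymphocyte difference of 1.73 (limma adjusted p = 7.07e-06).

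P2rx7 (1439787_at), the channel that opens at high ATP and is known to activate the inflammasome, had lower signals. They were 186 and 164 in pDCs, 223 and 218 in CD8α cDCs and 62.2 and 99.2 in CD11b cDCs. NK cells read 28.4 and 13.5, B cells 17.2, 5.39 and 14.9, and CD8 T cells 46.7 and 44.4. All DC arrays were above all lymphocyte arrays, and among lymphocytes the CD8 T cells were highest. DCs exceeded lymphocytes by 2.37 (log2, SE 0.13, limma adjusted p = 6.25e-08). CD8α cDCs were 2.81-fold above CD11b cDCs (log2 difference 1.49, SE 0.23, limma adjusted p = 0.000871), while pDCs minus cDCs gave 0.41 (95% interval −0.04 to 0.85, limma adjusted p = 0.142, and adjusted p = 0.0311 without CD11b cDC replicate 2). Without the floor the difference between the cDC subsets had an adjusted p of 0.104. CD11b cDCs were still above CD8 T cells (log2 difference 0.79, SE 0.23, adjusted p = 0.0192 over all pairs, limma). The pDCs were not distinguished from CD8α cDCs (pDCs minus CD8α cDCs −0.34, 95% interval −0.85 to 0.17, limma adjusted p = 0.274 over all pairs), nor NK cells from B cells. A further P2rx7 probe set (1419853_a_at) read 113 and 49.2 in pDCs, 86.3 and 80.0 in CD8α cDCs, 14.6 and 33.0 in CD11b cDCs and 0.911 to 13.5 in lymphocytes, with a DC minus lymphocyte difference of 1.44 (limma adjusted p = 9.85e-05). P2rx7 was thus highest in pDCs and CD8α cDCs by either probe set, the populations in which P2ry14 was high.

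In the mean of DCs against that of lymphocytes, the enzymes at both ends of the path from ATP to adenosine lay on opposite sides. Entpd1 (1423326_at), which removes the phosphates of ATP and ADP, read 123 and 89.6 in pDCs, 175 and 190 in CD8α cDCs and 136 and 146 in CD11b cDCs. NK cells read 40.3 and 42.9, B cells 92.6, 30.8 and 38.5, and CD8 T cells 13.5 and 23.5. The DC arrays were above all lymphocyte arrays but 1, B cell replicate 1, which overlapped with pDCs. DCs exceeded lymphocytes by 1.99 (log2, SE 0.23, limma adjusted p = 2.32e-05). This difference was 0.94 with the next probe set (adjusted p = 0.000613) and 1.19 with the term for the prefix of the source names (adjusted p = 0.000214), both from limma. In the order of the populations only the step between pDCs, the lowest DCs, and B cells passed (log2 difference 1.13, limma adjusted p = 0.0313 over all pairs). Within the DC family, pDCs minus cDCs gave −0.61 (95% interval −1.39 to 0.17, limma adjusted p = 0.207) and CD8α minus CD11b cDCs 0.37 (−0.53 to 1.27, adjusted p = 0.612).

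The first of these passed when B cell replicate 1 was left out (limma adjusted p = 0.0128). That array also had the highest Jchain, at 7866 against 92.1 and 332 in the other B cell arrays, and the highest S100a8, at 438 against 27.2 and 128. Of the other plasma cell markers, Xbp1 was also highest there among B cell arrays (1681 against 533 and 639). Sdc1 was lowest there (82.8 against 182 and 241), and Prdm1 lay between the others (39.6 against 36.0 and 47.3). B cell replicate 1 is also the only B cell array not labelled as follicular. The parts of this label and of these transcripts in its Entpd1 signal were not tested. The difference of pDCs from cDCs passed also with only the 6 DC arrays (limma adjusted p = 0.019) and with the source name term (adjusted p = 0.0126). With the next probe set, where pDCs were lower, it passed as well (1450939_at, log2 difference −1.02, limma adjusted p = 0.0098). That probe set read 32.8 and 35.0 in pDCs, 70.6 and 73.5 in CD8α cDCs and 60.4 and 71.9 in CD11b cDCs, and NK cells, at 61.0 and 32.3, reached into the range of the DCs.

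**Figure D3:**
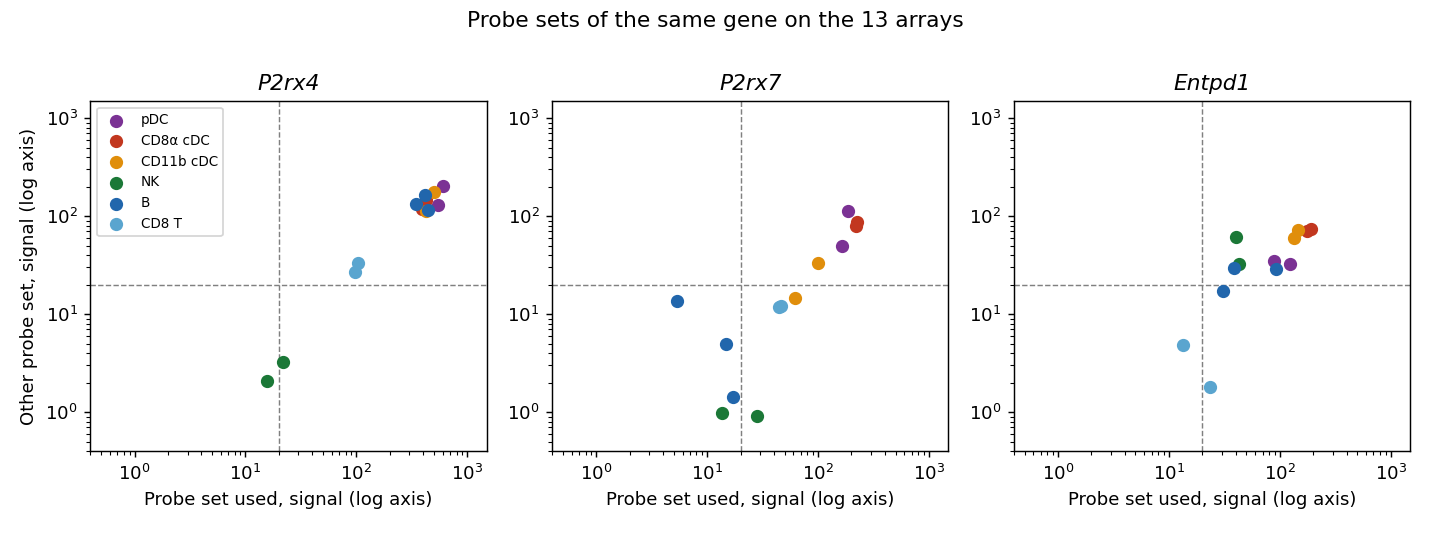
Signal of the probe set used (horizontal, log axis) and of the probe set with the next highest mean (vertical, log axis) for P2rx4, P2rx7 and Entpd1, 1 point per array, with dashed lines at the floor of 20. NK cells are lowest in both P2rx4 probe sets, and pDCs lie below the cDCs in the other Entpd1 probe set.

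Nt5e (1428547_at), which makes adenosine from AMP, read 3.79 and 22.7 in pDCs, 9.71 and 0.939 in CD8α cDCs and 0.623 and 1.22 in CD11b cDCs. NK cells read 36.7 and 62.9, B cells 12.6, 9.21 and 44.0, and CD8 T cells 205 and 140. Only CD8 T cells passed the filter, NK cells reached 50 on 1 array, and the DC arrays lay at or near the floor. DCs were lower than lymphocytes by 1.54 on the log2 scale (difference −1.54, SE 0.21, limma adjusted p = 9.39e-05), with a difference of −4.16 without a floor and −0.64 with the floor at 50. CD8 T cells exceeded NK cells (log2 difference 1.82, limma adjusted p = 0.00298 over all pairs). NK and B cells were not distinguished (0.88, limma adjusted p = 0.0634). B cells were also not distinguished from pDCs (pDCs minus B cells −0.29, limma adjusted p = 0.551 over all pairs) or from either cDC subset (−0.38, adjusted p = 0.422 for each). The DC populations were thus set apart from CD8 T and NK cells only. The other 2 Nt5e probe sets did not reach 50 on any array. In these arrays Entpd1 and Nt5e ran in opposite directions (Pearson r −0.80 over the 13 arrays, a description, since arrays of a population share its level).

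Over the 9 genes, 7 were higher in DCs than in lymphocytes (P2ry6, P2ry12, P2ry13, P2ry14, P2rx4, P2rx7 and Entpd1), against 31.3% of all genes tested. The other 2, P2ry10 and Nt5e, were lower, against 32.3%. These counts compare means over populations. Of the 7, only P2ry6 and P2rx7 had every DC array above every lymphocyte array. P2ry12 was at the floor in both cDC subsets and P2ry13 in CD8α cDCs. P2ry14 was lower in CD11b cDCs than in NK cells, and P2rx4 did not distinguish CD8α cDCs from B cells. The median log2 difference of the 9 was 2.12, against −0.02 over all genes. Between pDCs and cDCs, 4 were higher in pDCs (P2ry10, P2ry12, P2ry13 and P2ry14), against 17.7% of all genes, and 1 was lower (P2ry6), against 19.1%. The median was 0.41 there, against −0.00201 over all genes. Between the cDC subsets, 3 were higher in CD8α cDCs (P2ry6, P2ry14 and P2rx7), against 8.96% of all genes, and 1 was lower (P2ry13), against 10.6%. The median was 0 over the 9 as well as over all genes. Of the 135 pairs of populations over the 9 genes, 89 passed the test over all genes and pairs, against 41.4% of all pairs, from 13 of 15 pairs each for P2ry14 and P2rx7 down to 5 for P2ry12, which could pass only in pairs with pDCs. Since these genes were picked by name with the earlier results known and had passed the filter through the population in which they were high, the counts describe them and no more.

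**Figure D4:**
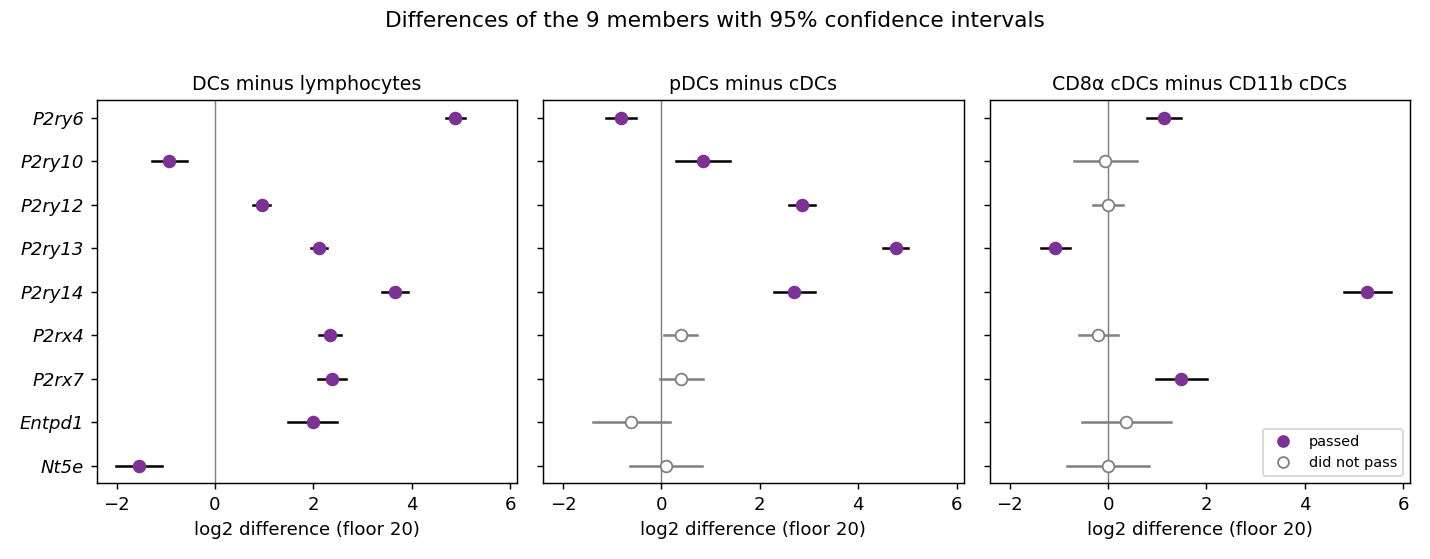
Log2 difference (points) of each gene in the 3 comparisons with its 95% confidence interval (lines), from limma on values floored at 20. Filled points passed the threshold of 0.05 after adjustment over all genes and open points did not. Between DCs and lymphocytes 7 genes lie right of 0 and 2 left of it.

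The genes whose pattern over the 13 arrays was most like each of the 9, by Pearson correlation of the floored log2 values among all genes tested, were as follows, as a description. For P2ry6 they were Prkar2b (0.995), a subunit of protein kinase A, Tifab and Il13ra1. For P2ry14 they were Gnb4 (0.957), a G protein β subunit, Tlr12 and P4hb. P2ry13 went with Lifr (0.996), Dst and Smim5, and P2ry12 with Fads3, Peli2 and Cd209d, where the 11 arrays at the floor fix most of the likeness. P2rx4 went with Ncf1 (0.986), a subunit of the phagocyte oxidase, Ctss, a protease of antigen processing, and Mpc1. P2rx7 went with Parp8 (0.955), Mycl and Phactr2, Entpd1 with Taldo1 (0.974), Skap2 and Ier5, P2ry10 with Med13 (0.967), Usp38 and Tsc1, and Nt5e with Kcnc1 (0.964), Acpp and Tle4. Among the 9 genes themselves the highest values were 0.98 for P2ry12 with P2ry13 and 0.92 for P2ry6 with P2rx7. P2ry12 was below the floor on 11 arrays and P2ry13 on 8, which fixes most of the first value. Arrays at the floor also enter the other values of P2ry13 and those of P2ry6 and Nt5e, each below it on 7 arrays. P2ry10 and Nt5e had negative values with P2ry6 (−0.68 and −0.61).

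Of 36 other receptors, channels and enzymes of extracellular nucleotides, nucleosides and related lipids, 29 had a probe set of their own and 17 passed the filter. By limma's F test 16 of the 17 differed among the populations, against 82.8% of all genes tested. In DCs 9 were higher and 6 lower than in lymphocytes, against 31.3% and 32.3% of all genes. In pDCs 6 were higher and 5 lower than in cDCs, against 17.7% and 19.1%, and in CD8α cDCs 4 were higher and 2 lower than in CD11b cDCs, against 8.96% and 10.6%. The other nucleotide receptors of the list were hardly seen: P2ry1, P2ry2, P2ry4, P2rx1, P2rx2, P2rx3 and P2rx6, as well as the ectonucleotidases Entpd2 and Entpd3, did not reach 50 on any array. P2ry2, the neighbour of P2ry6 on chromosome 7, stayed between 1.56 and 8.50.

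The 6 of the 16 with the largest F were Dpp4, Gpr34, Gpr174, Gpr171, P2rx5 and Gpr183. Dpp4 (CD26), a surface peptidase that in human cells binds adenosine deaminase, read 857 and 924 in pDCs, 1483 and 1908 in CD8α cDCs and 1814 and 1848 in CD11b cDCs. It read 17.0 and 21.6 in NK cells, 515 to 644 in B cells and 637 and 828 in CD8 T cells, so that NK cells alone read near the floor, as with P2rx4. Gpr34, a receptor for lysophosphatidylserine, read 6.24 and 10.9 in pDCs, 213 and 242 in CD8α cDCs and 271 and 191 in CD11b cDCs. All lymphocytes read at 23.3 or less, which made it a cDC transcript here. It was lower in pDCs than in cDCs by at least 3.51 on the log2 scale (difference −3.51, limma adjusted p = 2.98e-08).

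P2rx5, another ATP-gated channel, was likewise seen in cDCs alone, at 61.4 and 72.9 in CD8α cDCs and 65.4 and 75.0 in CD11b cDCs, and read 0.615 to 3.38 on the other 9 arrays. Its difference between pDCs and cDCs was −1.77 (limma adjusted p = 1.54e-06), with pDCs at the floor. Gpr183, a receptor for oxysterols that guides cells in the spleen, read 531 and 715 in pDCs, 80.8 and 63.4 in CD8α cDCs and 1254 and 1005 in CD11b cDCs. It was lower in CD8α than in CD11b cDCs by 3.97 (log2 difference −3.97, limma adjusted p = 2.09e-05), opposite to P2ry14 and Gpr171.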

How the data were processed

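Gene expression was measured in 6 sorted mouse spleen populations on 13 arrays. The authors amplified the RNA in successive rounds, used MAS5 for the deposited intensity values, scaling every array to a target of 100, so that signals are linear, carry no floor and do not give molecule counts. Aligned coordinates play no part in such values. The genome build of the probes is not given in the sources used here.

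The annotation gave 1 gene for 34958 of the 45101 probe sets, several for 932 and none for 9211. Genes were read from the probe set with the highest mean among those annotated to them alone, and kept where some population had all its replicates at 50 or more (9380 genes). Values were floored at 20 and log2 transformed. Limma 3.58.1 in R 4.3.3 was fitted once with 6 population means (7 residual degrees of freedom). It gave an F test, 3 comparisons (the mean of the 3 DC populations minus that of the 3 lymphocyte populations, pDCs minus the cDC mean, and CD8α cDCs minus CD11b cDCs) and 15 pairs of populations. Tests were two-sided, with Benjamini-Hochberg adjustment over all genes, and for pairs over all genes and pairs together. Confidence intervals are not adjusted.

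The members and lists were chosen with earlier results of these data known. All 10 members are named, and of the 36 further pathway genes the 6 with the largest F among those called. P2ry10b and Med12l were named after their values were seen, as genes that lie near members. The fit was tested on simulated data with known changes. Alternatives covered normalization, floor, filter, variance model, probe set, replicate number, scan day, sample name set and each array left out. The number of arrays limits the precision: most populations have 2.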

Additional observations from a re-analysis of the deposited data

How the results depend on the processing

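All 9 genes differed among the populations and between DCs and lymphocytes whichever array was left out, and 8 of the 9 where Nt5e could not be tested. Leaving out 1 array at a time, 4 to 7 genes differed between pDCs and cDCs (5 with all arrays), 4 to 4 between the cDC subsets (4), 80 to 92 pairs of populations (89) and 14 to 17 other pathway genes (16). Without a floor, 2 genes differed between the cDC subsets, since P2ry6 and P2rx7 no longer passed, and P2ry6 was also lost between pDCs and cDCs. With the floor at 50, 3 differed between the cDC subsets, since P2ry13 was lost. The pairs called were 59 without both NK cell arrays, 52 without both CD8 T cell arrays and 52 without B cell replicate 2 and both CD8 T cell arrays, with fewer pairs to test by construction (pairs called over all genes were 37680, 36186 and 33907, against 58280). These last 2 settings and the fixed scan day term were chosen after seeing the data. The difference of P2ry10 between the cDC subsets, which did not pass, was 0.041 with scan day as a fixed term, against −0.052, and −0.15 to 0.041 when single arrays were left out (0.041 without CD11b cDC replicate 1). Of the log2 differences of the 9 genes over the alternatives in which each gene was tested, leaving out those that were 0 with the main settings, 655 kept their side of the threshold without a change of sign, 9 lost a call, 8 gained one and 2 changed sign.

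Over all genes, calls between the cDC subsets numbered 1830, against 1206 with the next probe set, 1128 without CD11b cDC replicate 1, 1168 without CD11b cDC replicate 2 and 1115 without CD8α cDC replicate 2. The replicate number marks no shared sort in the labels, and the correlation of deviations between arrays of like number was −0.20 to 0.18. With the replicate block, 9 genes passed the F test, 9 differed from lymphocytes in DCs, 5 from cDCs in pDCs and 4 from CD11b cDCs in CD8α cDCs, and 86 pairs were called. On each array 49.1 to 58.3% of probe sets read below 20, which bounds folds at low signals. The cause of each change was not tested.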
